A study of Homo sapiens with 4 samples.

Results

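Of the genes measured in this RNA-seq experiment, 8 encode dual-specificity phosphatases that act on MAP kinases, namely DUSP1, DUSP4, DUSP5, DUSP6, DUSP7, DUSP10, DUSP14 and DUSP16. They were selected by gene symbol, and all 8 were found among the 16834 genes of the deposited gene table. The libraries came from cells labelled MIA PaCa-2, a human pancreatic ductal adenocarcinoma (PDAC) line whose genotype is given as WT, sampled after 12 h. The 4 conditions were a control, 1 µM NBT (neobractatin, a compound isolated from Garcinia bracteata), 5 µM trametinib (an inhibitor of the kinases MEK1 and MEK2) and the combination of both drugs at these doses. Each condition was sequenced as 1 library, so that no value below has a replicate, the variation between cultures is unknown, and each difference is one between libraries.

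The MAP kinases ERK, JNK and p38 are switched on when a MAP kinase kinase phosphorylates a threonine and a tyrosine in their activation loop. Dual-specificity phosphatases remove both phosphates. Several of their genes are themselves induced by the kinases that they switch off, and this makes them a classical negative feedback arm of the pathway. In tumors with an active RAS pathway, RNA of the ERK phosphatases DUSP4 and DUSP6 is widely read as a marker of ERK output. DUSP1, DUSP4 and DUSP5 are nuclear and inducible, DUSP6 and DUSP7 are cytoplasmic and prefer ERK, DUSP10 and DUSP16 prefer JNK and p38, and DUSP14 is a small atypical member without the kinase-binding domain of the others.

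The estimated counts summed to between 18776212 and 19614763 reads per library, so that 3 reads, the number used as a floor, equaled between 0.153 and 0.160 CPM (counts scaled to the library sum). Epithelial keratins were abundant, with 1493 to 3799 TPM for KRT8 and 995 to 3142 TPM for KRT18, and EPCAM stood between 209 and 242 TPM. Of the mesenchymal genes listed, VIM reached 11.5 to 26.4 TPM, ZEB1 1.04 to 2.61 TPM and AXL 210 to 343 TPM. CDKN2A, a gene that MIA PaCa-2 cells are known to have lost by homozygous deletion, had between 2643 and 3524 reads in all 4 libraries, which goes against the labelled line. CDKN2B, listed with it as deleted in this line, had 106 reads in the control library, 71 under NBT, 426 under trametinib and 253 under both drugs. The labels also give each library another number after the name of the line, while the titles name MIA PaCa-2 throughout. Of markers of other cell types, the leukocyte list summed to between 97.2 and 140 TPM, nearly all of it CD68. There were at most 17 reads for PTPRC, 26 for PECAM1 and 5 for LUM. In the control, NBT, trametinib and combination libraries, CD3E had 0, 0, 55 and 29 reads. The fibroblast gene COL1A1 had 45, 27, 98 and 53 reads in the same order. The summed TPM of the 6 ductal or epithelial marker genes found, of 7 listed, was 7302 in the control library, 6133 under NBT, 3571 under trametinib and 2772 under both drugs. KRT8 and KRT18 made up most of it. CDH1 stood at 85.4, 51.2, 86.9 and 57.0 TPM in the same order, SOX9 at 31.6, 25.0, 4.39 and 5.00, and MUC1 at 1.84, 2.58, 6.29 and 3.78, so that the 6 genes did not move together. The part of these levels in the results below was not tested, and less RNA per cell cannot be told apart from fewer cells of a kind.

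In the control library the order of the levels per length was DUSP14 with 94.9 TPM, DUSP7 with 54.4, DUSP10 with 22.7, DUSP4 with 22.02, DUSP5 with 17.1, DUSP1 with 14.3, DUSP16 with 13.4 and DUSP6 with 9.53 TPM. The 95% exact Poisson intervals, which cover counting error only, overlapped for DUSP10 (20.9 to 24.6) and DUSP4 (20.8 to 23.3), for DUSP5 (15.5 to 18.9) and DUSP1 (12.6 to 16.1), and for DUSP1 and DUSP16 (12.4 to 14.4). The other neighbors in this order did not overlap. DUSP14 remained the most abundant of the 8 genes in every library, while DUSP1 moved from the sixth place to the second with the combination, and DUSP6 was the least abundant in all libraries but that with NBT, where DUSP4 was.

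**Figure D1:**
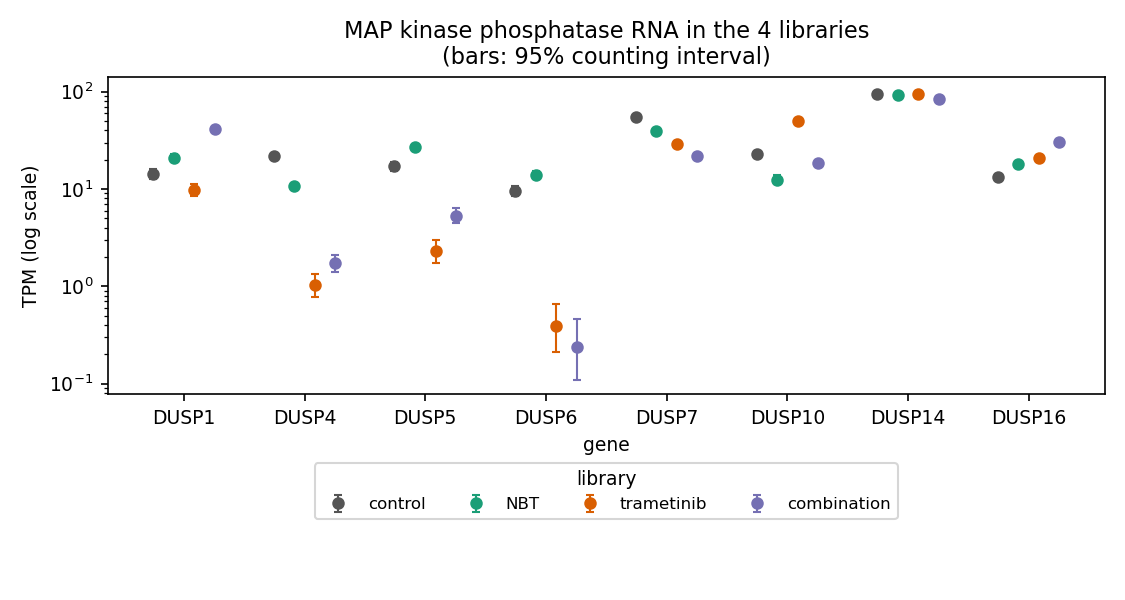
TPM (log scale) of the 8 phosphatase genes in the control, NBT, trametinib and combination libraries, 1 point per library with its 95% Poisson counting interval. DUSP4, DUSP5 and DUSP6 drop in both libraries that received trametinib, DUSP1 is highest with the combination (41.7 TPM), DUSP10 is highest with trametinib alone (49.5 TPM), and DUSP14 stays between 84.6 and 95.9 TPM.

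A gene was called when an exact two-sided binomial test of its counts in 2 libraries passed a false discovery rate of at most 0.05 over all genes and its log2 ratio was at least 1 in size, the limits that the study's methods give. With trametinib, 4 of the 8 genes were called against the control, DUSP4, DUSP5 and DUSP6 as lower and DUSP10 as higher, where 6.14% of the 16197 genes tested were called. With the combination 6 were called, DUSP4, DUSP5, DUSP6 and DUSP7 as lower and DUSP1 and DUSP16 as higher, against 8.73% of 16229 genes. With NBT alone none of the 8 was called, against 2.76% of 15888 genes, although the intervals of 7 excluded 0. Without the log2 limit, 7 of the 8 and 5703 of the 15888 genes passed the test in this comparison. Across the 8 genes the log2 fold changes had a median of -0.68 under trametinib, -0.77 under both drugs and 0.24 under NBT, where the medians of all genes tested were 0.084, 0.051 and -0.0092.

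**Figure D2:**
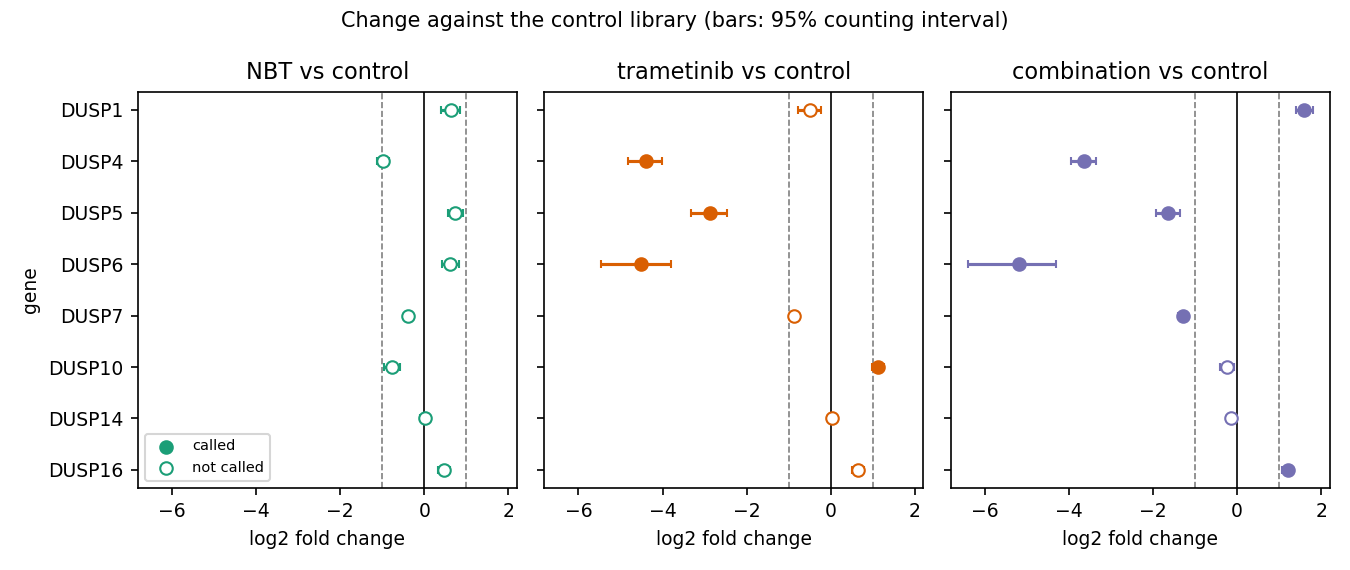
Log2 fold change of each gene in the NBT, trametinib and combination libraries against the control library, with 95% Clopper-Pearson counting intervals. Filled points are called genes, the dashed lines mark the limits of -1 and 1, and the widest interval is that of DUSP6, which had 9 reads with the combination.

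DUSP6 (NCBI Gene 1848, chr12:89347235-89352501 in GRCh38.p14) encodes the cytoplasmic ERK phosphatase MKP3. The control library held 329 of its reads, the NBT library 521, the trametinib library 14 and the combination library 9, or 9.53, 13.9, 0.39 and 0.24 TPM. The libraries thus fell into a pair with at least 329 reads and a pair with at most 14. The log2 fold change was -4.52 with trametinib (95% Clopper-Pearson interval from -5.45 to -3.80) and -5.18 with the combination (from -6.40 to -4.31), corresponding to 22.9-fold and 36.2-fold lower levels. Among the 10520 genes with at least 100 reads in the control or trametinib library, 3 had a lower value than DUSP6, and 3 of 10527 did so with the combination. The 14 and 9 reads of the 2 libraries that received trametinib did not differ beyond counting error, with a log2 difference of -0.66 (from -2.08 to 0.62).

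DUSP7 (NCBI Gene 1849, chr3:52048919-52056571) encodes the other cytoplasmic ERK phosphatase of the set. The control library held 1738 of its reads, the NBT library 1378, the trametinib library 963 and the combination library 742. Its levels stepped down from library to library in this order, without the loss seen for DUSP6. Its log2 value against the control was -0.86 with trametinib (from -0.98 to -0.75), short of the limit, and -1.29 with the combination (from -1.42 to -1.17), which passed it. That call was lost when cultures were assumed to vary with a coefficient of variation of 0.2. In the combination library DUSP7 kept 40.9% of its control level and DUSP6 2.76%.

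DUSP5 (NCBI Gene 1847, chr10:110497907-110511533) encodes a nuclear phosphatase specific for ERK, which it also anchors in the nucleus. The control library held 401 of its reads, the NBT library 689, the trametinib library 55 and the combination library 134. Both libraries with trametinib lay below both libraries without it, and the combination lay above trametinib alone. Against the control, the log2 fold change was -2.87 with trametinib (from -3.31 to -2.47) and -1.64 with the combination (from -1.94 to -1.36). Between the 2 libraries with trametinib, DUSP5 was higher by 1.23 (from 0.77 to 1.72) when NBT was present, a call lost when cultures were assumed to vary with a coefficient of variation of 0.2.

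DUSP1 (NCBI Gene 1843, chr5:172768096-172771195) encodes MKP-1, a nuclear phosphatase of p38, JNK and ERK and an immediate early gene of growth factor and stress signals. The control library held 270 of its reads, the NBT library 431, the trametinib library 192 and the combination library 848. The combination library stood apart as the highest and trametinib alone as the lowest. The log2 fold change with the combination was 1.59 (from 1.39 to 1.79), a 3.003-fold higher level. With trametinib alone it was -0.50 (from -0.78 to -0.23), which was not called. DUSP1 was thus 4.26-fold higher with the combination than with trametinib alone (log2 difference 2.09, from 1.87 to 2.33), and 43 of 10572 genes with at least 100 reads in either library had a higher value.

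DUSP16 (NCBI Gene 80824) lies at chr12:12473282-12562863 and encodes MKP-7, a phosphatase that shuttles between nucleus and cytoplasm and prefers JNK and p38. The control library held 713 of its reads, the NBT library 1018, the trametinib library 1123 and the combination library 1710. All 3 treated libraries lay above the control. The log2 fold change was 0.46 with NBT and 0.64 with trametinib, neither of which was called, and 1.198 (from 1.07 to 1.33) with the combination. The latter call was lost at the same coefficient of 0.2.

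DUSP10 (NCBI Gene 11221, chr1:221701424-221742089) encodes MKP-5, the other phosphatase of the JNK and p38 kinases in the set. Its estimated counts, 595.75 for the control library, 364.24 for NBT, 1312.60 for trametinib and 525.67 for both drugs, were not whole numbers. Trametinib alone gave the highest level and NBT alone the lowest. The log2 fold change with trametinib was 1.13 (from 0.99 to 1.27), and with the combination it was -0.24 (from -0.42 to -0.072), which was not called. The combination library was 2.58-fold lower than the trametinib library, and this difference of -1.37 (from -1.52 to -1.22) was called. Neither this call nor that with trametinib against the control was kept when cultures were assumed to vary with a coefficient of variation of 0.2. The call of DUSP10 as lower in the NBT than in the trametinib library was kept.

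DUSP4 (NCBI Gene 1846) encodes MKP-2, a nuclear phosphatase of ERK and JNK. Its estimated counts were 1175.05 for the control library, 619.63 for NBT, 56.32 for trametinib and 98.38 for both drugs. NBT alone left it at 51.0% of the control and trametinib alone at 4.76%. DUSP7 was also lower with each single drug, at 76.6% and 54.9%. The log2 fold change was -4.39 with trametinib (from -4.82 to -4.02) and -3.64 with the combination (from -3.96 to -3.35), and 5 of 10520 and 16 of 10527 genes had lower values. With NBT it was -0.97 (from -1.11 to -0.83), just short of the limit of 1.

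DUSP14 (NCBI Gene 11072, chr17:37488566-37513498) encodes MKP6. The control library held 1326 of its reads, the NBT library 1381, the trametinib library 1371 and the combination library 1260. The 4 libraries lay close together. Against the control, its log2 fold changes were 0.0087 (from -0.10 to 0.12) for NBT, 0.035 (from -0.075 to 0.14) for trametinib and -0.14 (from -0.25 to -0.024) for both drugs. The first 2 intervals include 0, and that of the combination overlaps the interval of DUSP10.

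The sequences around the start sites of 4 members are shown because these genes moved in opposite directions with the combination, DUSP1 and DUSP16 up and DUSP6 and DUSP7 down. Each window holds 250 bases before and 50 bases from the annotated start and is given 5′ to 3′ on the strand of the gene, which is the minus strand for all 4, from RefSeq (GRCh38.p14). The windows are chr5:172771146-172771445 for DUSP1, chr12:12562814-12563113 for DUSP16, chr12:89352452-89352751 for DUSP6 and chr3:52056522-52056821 for DUSP7. Capitals mark matches to the motifs named after the sequences.
DUSP1: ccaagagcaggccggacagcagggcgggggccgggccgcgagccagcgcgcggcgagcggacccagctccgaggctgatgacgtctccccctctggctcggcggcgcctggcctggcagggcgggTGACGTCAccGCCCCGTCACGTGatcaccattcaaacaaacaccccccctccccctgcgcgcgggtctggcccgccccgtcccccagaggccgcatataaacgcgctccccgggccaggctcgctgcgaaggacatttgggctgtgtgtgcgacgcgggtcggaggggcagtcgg
DUSP16: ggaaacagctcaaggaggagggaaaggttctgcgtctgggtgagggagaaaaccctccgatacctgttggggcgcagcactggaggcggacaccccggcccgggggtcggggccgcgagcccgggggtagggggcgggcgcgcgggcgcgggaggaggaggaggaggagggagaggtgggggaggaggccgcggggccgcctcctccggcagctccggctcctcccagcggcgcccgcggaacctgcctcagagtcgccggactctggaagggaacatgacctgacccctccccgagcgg
DUSP6: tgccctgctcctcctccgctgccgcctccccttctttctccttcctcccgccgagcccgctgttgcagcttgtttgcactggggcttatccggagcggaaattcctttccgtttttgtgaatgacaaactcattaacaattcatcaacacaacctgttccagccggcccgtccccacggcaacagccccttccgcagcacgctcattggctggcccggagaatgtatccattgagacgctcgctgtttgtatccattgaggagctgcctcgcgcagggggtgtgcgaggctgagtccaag
DUSP7: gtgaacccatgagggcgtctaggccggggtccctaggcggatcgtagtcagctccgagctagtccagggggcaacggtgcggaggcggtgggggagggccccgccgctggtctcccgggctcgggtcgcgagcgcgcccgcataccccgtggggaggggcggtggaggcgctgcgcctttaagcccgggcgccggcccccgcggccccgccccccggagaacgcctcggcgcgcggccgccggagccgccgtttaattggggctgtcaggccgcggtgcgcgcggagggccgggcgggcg

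Promoter windows of 6 of the 8 genes were examined, with 2 windows for DUSP10. Those of DUSP4 and DUSP5 were not examined. The motifs searched on both strands were the cAMP response element TGACGTCA (CRE), the AP-1 site TGANTCA, the ETS site CCGGAAG, the E-box CACGTG, the antioxidant response element TGACNNNGC (ARE) and the CArG box of serum response factor, with the short CRE core TGACG, the ETS core GGAAGT and the amino acid response element TGATGNAA. Only the DUSP1 window held the full CRE, at position -125 from the start site, and 1.85% of 35116 RefSeq promoter windows of this length hold one. It is followed by an ARE match and an E-box that overlap each other, motifs found in 13.3% and 7.26% of all windows. Of the 2 DUSP10 windows, 1 also held an ARE match, at position -8, and the short core within it. The short core, found in 24.6% of all windows, lies within the CRE and the ARE match and once more at position -172, which is not in capitals. The windows of DUSP16, DUSP6 and DUSP7 held none of these motifs and so are printed without capitals, and the ETS letters, present in 10.3% of all windows, were in none of the 7. The GC content was 73.3% for DUSP1 and DUSP16, 58.3% for DUSP6 and 78.0% for DUSP7. A match describes these letters only, and binding was not measured.

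With NBT alone the 8 genes split without passing the limits. DUSP5, DUSP1, DUSP6 and DUSP16 had log2 fold changes of 0.73 (from 0.55 to 0.91), 0.62 (from 0.40 to 0.85), 0.61 (from 0.41 to 0.82) and 0.46 (from 0.32 to 0.60). DUSP4, DUSP10 and DUSP7 had values of -0.97, -0.76 (from -0.95 to -0.57) and -0.38 (from -0.49 to -0.28). Among the ERK phosphatases, NBT alone therefore left DUSP5 and DUSP6 above and DUSP4 and DUSP7 below the control library, by more than counting error in each case. Such differences were common at this depth, as 5703 of 15888 genes passed the test without the log2 limit.

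The design allows the change with each drug to be read in a pair of comparisons that share no library, without and in the presence of the other drug. When trametinib was added to NBT, DUSP4, DUSP5 and DUSP6 were called as lower and none of the 8 members as higher. Of the 16250 genes tested for combination and NBT libraries, 4.54% were called. DUSP6 was lower by a log2 difference of -5.79 (from -7.01 to -4.93) with NBT present and by -4.52 without it. For DUSP5 the values were -2.37 and -2.87, for DUSP7 -0.91 and -0.86, and for DUSP16 0.73 and 0.64. DUSP4 was lower by -2.67 (from -3.00 to -2.37) with NBT present and by -4.39 without it, intervals that do not overlap. DUSP1 changed sign, from -0.50 without NBT to 0.96 (from 0.79 to 1.13) with it, and DUSP10 had 1.13 without and 0.52 (from 0.32 to 0.71) with NBT.

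When NBT was added to trametinib, DUSP1 and DUSP5 were called as higher and DUSP10 as lower, against 6.37% of 16343 genes. For DUSP1 the log2 difference was 2.09 with trametinib present and 0.62 without, for DUSP5 1.23 and 0.73, and for DUSP10 -1.37 and -0.76, so that these 3 genes differed in the same direction in both settings. DUSP7 (-0.43 and -0.38) and DUSP16 (0.56 and 0.46) had similar values in both. DUSP4 had 0.75 (from 0.27 to 1.26) with trametinib present and -0.97 without. Between the single drugs, DUSP1, DUSP4, DUSP5 and DUSP6 were higher and DUSP10 was lower in the NBT than in the trametinib library, 5 of 8 called against 8.50% of 16222 genes, with log2 differences from -1.89 for DUSP10 to 5.13 for DUSP6. Of these, the call of DUSP1 was lost at the same coefficient of 0.2.

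**Figure D3:**
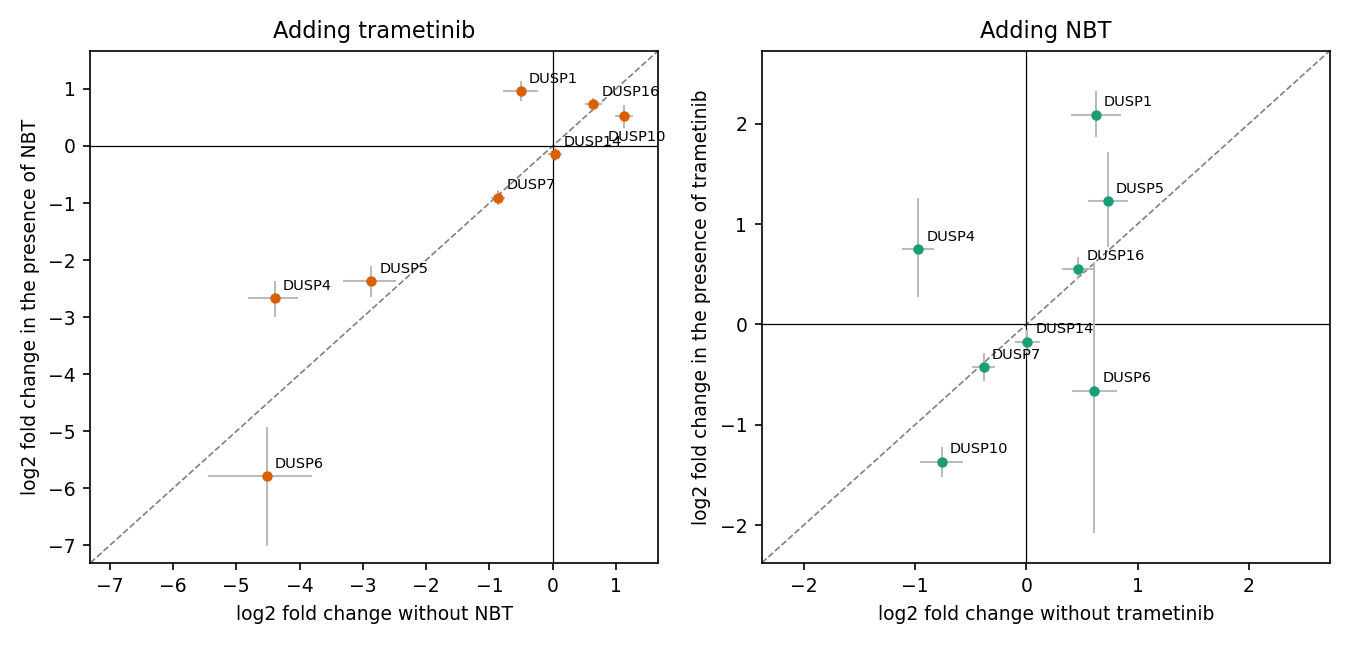
Log2 fold change on adding trametinib (left) or NBT (right), without the other drug on the horizontal axis and in its presence on the vertical axis, 1 point per gene with 95% counting intervals; the dashed line marks equal values. The vertical distance of a gene from the line is by construction the same in both panels. DUSP7 and DUSP16 lie close to the line, DUSP1 (1.47) and DUSP4 (1.72) above it and DUSP10 (-0.61) below it.

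The difference between the settings is the same number for either drug, and it is also the departure of the combined change from the sum of the single ones. Whether the combined change equaled the sum of the single-drug changes on the log2 scale was then computed, with a 95% interval from the 4 counts that covers counting error only. DUSP7 and DUSP16 departed from the sum by -0.041 (from -0.21 to 0.13) and 0.093 (from -0.082 to 0.27), within counting error. DUSP1 stood above it by 1.47 (from 1.15 to 1.78), since the single drugs summed to 0.12 and the combination gave 1.59. DUSP4 stood above it by 1.72 (from 1.23 to 2.22), as the sum of -5.36 exceeded the observed fall of -3.64. DUSP10 lay below the sum by -0.61 (from -0.85 to -0.37). DUSP5 (0.50, from 0.012 to 0.98), DUSP6 (-1.27, from -2.47 to -0.075) and DUSP14 (-0.18, from -0.34 to -0.025) had intervals that ended close to 0. Variation between cultures is not in these intervals and would widen them.

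Summed over the 8 genes, the level was 248 TPM in the control library, 235 under NBT, 209 under trametinib and 205 under both drugs. By class, the nuclear inducible DUSP1, DUSP4 and DUSP5 held 21.5% of it in the control library, 25.1% under NBT, 6.30% under trametinib and 23.9% under both drugs. The cytoplasmic DUSP6 and DUSP7 held 25.7%, 22.9%, 14.2% and 10.7%, and DUSP10 and DUSP16 held 14.5%, 13.0%, 33.7% and 24.1%. In the nuclear class DUSP1 made up 41.7 of 48.8 TPM under both drugs. The make-up is also given for a pair of subsets that were chosen after their values were seen. DUSP4, DUSP5, DUSP6 and DUSP7, the genes most tied to ERK, held 41.5% of the sum in the control and 39.0% with NBT, but 15.8% with trametinib and 14.2% with the combination. DUSP1, DUSP10 and DUSP16 held 20.3%, 21.9%, 38.4% and 44.5% in the same order. In the trametinib library most of the latter share was DUSP10 (49.5 of 80.3 TPM), and in the combination library it was DUSP1 (41.7 TPM) and DUSP16 (30.8 of 90.9 TPM).

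**Figure D4:**
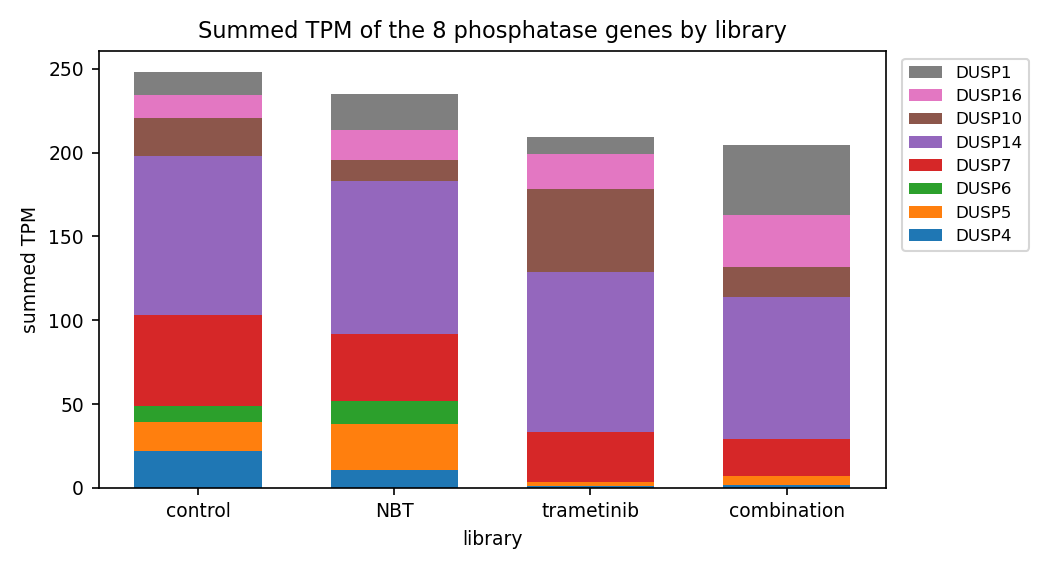
Summed TPM of the 8 phosphatase genes per library, stacked by gene. The 4 lowest segments, DUSP4 to DUSP7, shrink from 103 TPM in the control to 33.1 with trametinib and 29.0 with the combination, while DUSP14 changes little.

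At the transcript level DUSP1, DUSP5, DUSP6 and DUSP7 had 1 RefSeq transcript each, so their values equal those of the gene. For DUSP4, DUSP10 and DUSP14 the main transcript held at least 85.4% of the reads in each library. DUSP16 was split over 4 transcripts. The share of XM_006719155.2 was 24.2% for the control library, 51.3% for NBT, 33.8% for trametinib and 50.01% for both drugs, while XM_005253488.3, the largest in the control library, had 43.1%, 22.4%, 23.0% and 23.7% in the same order. NM_030640.3 had 32.7%, 26.3%, 25.4% and 22.6%. XM_011520856.1 had an estimated 199.88 reads with trametinib and 62.62 with the combination and was listed at 0 in the control and NBT libraries. These shares come from the authors' division of reads among overlapping transcripts, an error that counting intervals do not cover.

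For each member the 2 genes with the most similar log2 fold changes over the 3 treated libraries were taken among 10662 genes with at least 100 reads in a library, by Euclidean distance. DUSP6 lay nearest to ETV5, an ETS transcription factor gene downstream of ERK, at a distance of 1.22. ETV5 had 367, 777, 16 and 23 reads in the control, NBT, trametinib and combination libraries. DUSP4 lay nearest to TNS4 (0.64) and EPHA2 (0.87), and DUSP5 to ANTXR2 (0.46) and STING1 (0.59). DUSP1 lay nearest to BRF2 (0.45) and SELENOS (0.48), the latter a gene of the endoplasmic reticulum stress response with 981, 1913, 852 and 2568 reads. DUSP10 lay close to PLAC8 (0.060), with 224, 134, 476 and 197 reads, and DUSP16 to DENND2C (0.081). DUSP7 lay nearest to ELOVL6 (0.11) and DUSP14 to CIAO3 (0.012). All distances rest on the same 4 libraries and share the control.

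Other genes of the pathway were counted in the same way. The 12 ERK output genes included SPRY2, SPRY4, SPRED1, ETV4, CCND1, EGR1 and FOSL1. All 12 were called as lower with trametinib (median log2 fold change -3.13) and with the combination (-2.57), and 1 as higher with NBT (0.077). Over all genes tested, 6.14%, 8.73% and 2.76% were called in these comparisons. The pathway lists were chosen with earlier results of these data known. FOSL1, which encodes a subunit of AP-1, had 11889 reads in the control library, 12386 under NBT, 1268 under trametinib and 4000 under both drugs. Like DUSP5, it was thus higher with the combination than with trametinib alone, as were IER3 (4587, 5422, 410 and 1214 reads) and SPRY2 (179, 205, 32 and 68 reads), while CCND1 was called as lower. The remaining 8 of the 12 genes were not called between these libraries. Of the 8 genes listed as JNK and p38 stress output, 4 were called as higher with the combination (ATF3, GADD45A, GADD45G and ZFP36), where the median was 0.90. With trametinib ATF3 was higher and CXCL8 lower, and with NBT GADD45G was higher. Between combination and trametinib, JUN, ATF3, GADD45A, GADD45G and CXCL8 were called as higher and none of the 8 as lower. In that comparison 6.37% of all genes tested were called. The activity of JNK and p38 was not measured. ATF3, a stress-induced transcription factor gene, had 718, 1405, 2329 and 6091 reads.

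None of the 10 MAP kinase genes was called in any comparison. Over all genes tested, from 2.76% to 8.73% were called per comparison, so that few or no calls in a list this short do not set its genes apart. Of the 7 MAP kinase kinases only MAP2K6, which activates p38, was called, with 94 control reads, 42 under NBT, 125 under trametinib and 18 under both drugs. It was called as lower in the NBT and in the combination library than in the control. The combination library was also called as lower than NBT (-1.21) and trametinib (-2.81), and NBT as lower than trametinib (-1.60). DUSP8, the remaining relative of DUSP10 and DUSP16, had 292, 282, 483 and 602 reads and was called only against the NBT library, with a log2 difference of 1.08 for the combination. DUSP2 had at most 3 reads and DUSP9, called as lower with the combination, at most 6. None of the 12 atypical dual-specificity phosphatases found was called in any comparison, the highest per length being STYXL1 with 113, 123, 137 and 140 TPM. Of 8 phosphatases of other families, such as PPM1D and PPP2CA, PTPN7 alone was called, on 1, 0, 21 and 9 reads.

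**Figure D5:**
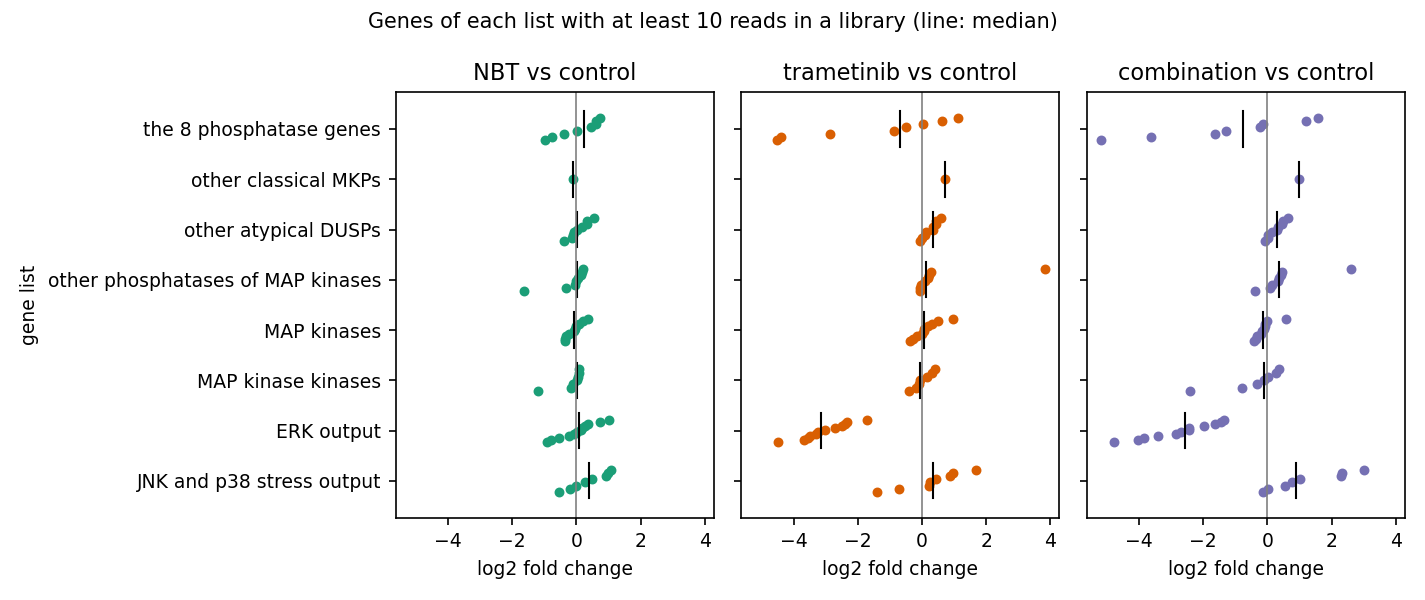
Log2 fold change against the control library of the genes of each list with at least 10 reads in a library, 1 point per gene, with the median as a line. ERK output genes lie left of 0 in the trametinib and combination panels, and the 8 phosphatase genes spread to both sides (median -0.68 with trametinib). No MAP kinase was called, where from 2.76% to 8.73% of all genes tested were called against the control.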

How the data were processed

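RNA of the 4 conditions was sequenced on the BGISEQ-500 platform by the authors. The submitters' processing notes name Bowtie2 2.2.5, RSEM 1.2.8 and the build hg38. The authors deposited, per gene and per transcript, an estimated count (RSEM's, without normalization), TPM (relative to transcript length and the library's total) and FPKM (relative to length and fragments mapped). FPKM was not used further. Strand handling and read filters are not given in the sources used here.

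Columns were matched to conditions by name and title. Estimated counts were rounded and divided by library sums, and 0.5 reads were added for log2 ratios. All 6 pairs of libraries were tested over all genes with at least 1 count, with an exact two-sided binomial test and Benjamini-Hochberg adjustment, at 0.05 and an absolute log2 ratio of 1. The study's methods name the program PossionDis with the same limits. No p-value is printed, because each test compares 2 libraries. Intervals are 95% Clopper-Pearson intervals of count ratios, or exact Poisson intervals of levels, and cover counting error only, as PCR copies are not independent molecules.

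The named genes are the 8 members, the genes of 7 lists of related phosphatases, kinases and pathway output, and for each member the 2 genes nearest in pattern. Members and lists were chosen with earlier results of these data known. Alternatives were edgeR's TMM and DESeq2's median-of-ratios scaling, deposited TPM with a pseudocount of 0.1, 5 added reads, summed transcripts, a minimum of 10 counts, edgeR's negative binomial exact test with assumed coefficients of variation of 0.2 and 0.4, a log2 limit of 2, no log2 limit, and the log2 limit alone. The calling steps were tested on simulated data for NBT and control with 200 genes changed 3-fold. The simulated counts were Poisson, which is the model of the binomial test, and held no variation between cultures. Under this model the binomial test called 200 of the changed genes, with 2 false calls in 15545 genes. These numbers check the calling steps and give no false-call rate for real libraries. At a coefficient of 0.2 the negative binomial test recovered 166, with 0 false calls. At 0.4 it recovered 0, so that changes of this size are out of its reach. Python 3.11.15, scipy 1.17.1, R 4.3.3, edgeR 4.0.16 and DESeq2 1.42.0 were used.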

Additional observations from a re-analysis of the deposited data

Results flagged for a closer look

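Each condition has 1 library, and no sample was compared with others of its group. The change with each drug was compared without and in the presence of the other drug, and members whose sign was opposite in the 2 settings are given here. With no replicates the difference between the settings has no test between conditions. Its counting interval, which is that of the departure from additivity, excluded 0 for each of them with counts scaled to library sums. It ran from 1.15 to 1.78 for DUSP1, from 1.23 to 2.22 for DUSP4, from -2.47 to -0.075 for DUSP6 and from -0.34 to -0.025 for DUSP14. Variation between cultures is not in these intervals. With TMM or median-of-ratios scaling the departure of DUSP14 was -0.14, and with deposited TPM it was -0.13. That of DUSP6 was -1.07 with deposited TPM. Intervals were not computed for these settings, so that exclusion of 0 is not shown there for DUSP6 and DUSP14.

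For DUSP1, adding trametinib gave a log2 difference of -0.50 without NBT and 0.96 in its presence, and both counting intervals excluded 0. For DUSP4, adding NBT gave -0.97 without trametinib and 0.75 in its presence, again with both intervals excluding 0. For DUSP6, adding NBT gave 0.61 without trametinib and -0.66 in its presence, and the latter rests on 14 and 9 reads, with an interval that includes 0. For DUSP14, adding trametinib gave 0.035 without NBT and -0.15 with it, and adding NBT gave 0.0087 without trametinib and -0.17 with it, in each case with the first interval including 0.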

How the results depend on the processing

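With 5 added reads, with summed transcripts, and with TPM, TMM or median-of-ratios scaling, none of the 48 log2 differences of the 8 genes left its counting interval, and none that was called changed sign. The farthest value was that of DUSP6 between combination and NBT, -5.79 and -5.24 with 5 added reads. The sets of called members were also the same in the other 5 comparisons under these settings and under a minimum of 10 counts or the log2 limit alone, and in NBT against control the deposited TPM values added DUSP4 as lower, 1 gene in place of 0. Every departure from additivity stayed within its interval, and no interval was computed under these settings. The intervals of DUSP5, DUSP6 and DUSP14 ended close to 0, so that whether they would still exclude 0 is not shown.

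The calls depended on the variation assumed between cultures, which was not measured. In the order NBT, trametinib and combination against control, combination against NBT, combination against trametinib, and NBT against trametinib, the members called were 0, 4, 6, 3, 3 and 5 in the binomial test, 0, 3, 4, 3, 1 and 4 with a coefficient of variation of 0.2, 0, 2, 2, 1, 0 and 2 with 0.4, 0, 3, 2, 3, 1 and 3 with a log2 limit of 2 and 7, 7, 8, 8, 7 and 7 without one. With 0.2, DUSP10 was no longer called with trametinib, nor DUSP7 and DUSP16 with the combination, nor DUSP5 and DUSP10 between combination and trametinib, nor DUSP1 between NBT and trametinib. With 0.4, DUSP4 and DUSP6 alone remained called against the control, with trametinib and with the combination. Over all genes the counts were 439, 995, 1416, 738, 1041 and 1379 in the binomial test, 69, 365, 547, 204, 302 and 584 with 0.2, 4, 22, 51, 13, 14 and 42 with 0.4, 131, 372, 433, 269, 275 and 486 with the limit of 2 and 5703, 6993, 8132, 6160, 7514 and 7673 without one. They fall with 0.2 and 0.4 because these tests allow for more variation. The reads of DUSP6 with trametinib and with the combination limit what can be said of a difference between these 2 libraries. No paired analysis was possible because each condition has 1 library.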
